A study of Mus musculus with 6 samples.

Results

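The genes described here are the WNT ligands, their receptors and coreceptors, secreted WNT antagonists, the R-spondin axis, feedback inhibitors and the main cytoplasmic and nuclear members of the pathway, in colonies grown from the bone marrow of mice. The rule takes them by gene symbol and uses no measured value: every numbered *Wnt*, *Fzd*, *Sfrp*, *Dkk* and *Rspo* gene, *Lgr4*, *Lgr5* and *Lgr6*, and a set of named genes from *Frzb* to *Porcn*. This gave 52 of the 14735 genes in the table. Of 69 mouse genes that the rule describes, the other 17, among them *Sost*, *Sostdc1*, *Dkk1*, *Wnt3a* and *Wnt10a*, were not analysed here.

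Bone marrow cells from the hind limbs of 2-month-old C57BL/6 mice carrying Col10a1-Cre and the R26-tdTomato reporter were plated at clonal density in hypoxia, and single CFU-F colonies (colony forming units of fibroblastic cells) were taken with cloning cylinders at day 10. There were 3 tdTOMATO+ CFU-Fs, and they were compared with 3 tdTOMATO- CFU-Fs of the same genotype, age and day. Cre was driven by *Col10a1*, a collagen gene of hypertrophic chondrocytes, so tdTOMATO marks cells in which Cre was active at some time in their descent, and the tdTOMATO- colonies carried Cre and the reporter as well. Each library was the RNA of 1 whole colony, the colonies were told apart by fluorescence under the microscope, and nothing states that they came from separate mice, so p-values measure the spread between these colonies.

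Between 24085516 and 31046589 reads fell in genes per library. Values are normalized counts, the reads of a gene divided by a size factor of its library. Of 5 fibroblast matrix genes, the collagen genes *Col1a1*, *Col1a2* and *Col3a1* were abundant in all 6 colonies. *Dcn* and *Lum* were far lower, with 64.6 to 571 and 11.3 to 796 normalized counts. Macrophage genes were present in all 6 colonies as well. All 11 macrophage markers measured passed the test as higher in tdTOMATO+ colonies, with a summed level of 65160 to 70047 normalized counts in tdTOMATO+ colonies and 37159 to 37511 in tdTOMATO- colonies, a median log2 fold change of 0.83. None of the 11 was at 0 in any colony. The 6 osteoblast markers summed to 50858 to 82968 normalized counts in tdTOMATO+ colonies and 34611 to 41394 in tdTOMATO- colonies, and none of them passed. *Ibsp* and *Alpl* made up most of these sums, the median log2 fold change of the 6 was 0.25, and *Sp7* and *Bglap* were at -0.17 and -0.62. None of 5 osteoclast and 5 chondrocyte markers passed. The osteoclast median was 2.04, with *Ctsk* at -0.05 and *Ocstamp* and *Dcstamp* at a mean under 30. The chondrocyte median was -0.77, and all 5 were below 0. Of 4 endothelial markers, *Pecam1*, *Cdh5* and *Tek* had a mean under 30 and *Pecam1* was at 0 in tdTOMATO+ replicate 1. The part of the macrophages or of other cell types in the results below was not tested. In RNA of whole colonies fewer cells of a type and less RNA per cell cannot be told apart. The labels give no batch for these libraries.

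WNT proteins are lipid-modified signals that bind a Frizzled receptor together with the coreceptor LRP5 or LRP6. This stops the destruction complex built on AXIN from degrading beta-catenin, which then enters the nucleus and activates genes with TCF and LEF factors, while other WNT proteins act through ROR and RYK receptors without beta-catenin. In bone the pathway is known to promote osteoblast formation, and secreted antagonists and R-spondins lower or raise its activity.

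Groups were compared by limma fitted to log2(normalized count + 1) of all 14735 genes, with two-sided p-values adjusted by the Benjamini-Hochberg method, so fold changes are on that scale and understate the change of low genes. A positive log2 fold change means a higher value in tdTOMATO+ colonies. A gene passed at an adjusted p under 0.05. Of the 52 WNT genes, 1 rose in tdTOMATO+ colonies, *Wnt4*, where 1.20% of all genes did, and 0 fell, where 0.143% of all genes did. With limma, 13 of the 52 had an unadjusted p under 0.05 in the higher direction (7.53% of all genes) and 4 in the lower direction (4.79% of all genes). edgeR on the recovered reads also called 1 higher (1.15% of all genes) and 0 lower (0.129%), and DESeq2, which called more genes throughout, 9 higher (3.38%) and 2 lower (1.08%). The 9 were *Wnt4*, *Wnt5a*, *Porcn*, *Wnt2b*, *Wnt7b*, *Rnf43*, *Lgr5*, *Apcdd1* and *Sfrp2*, and the 2 were *Rspo3* and *Nkd1*. In 11 WNT genes all 3 tdTOMATO+ colonies lay above all 3 tdTOMATO- colonies (9.89% of all genes) and in 5 they lay below (8.33%), together 16 of 52, where 18.2% of all genes were apart in either direction. The median log2 fold change was 0.09 over the 52 genes and -0.005 over all genes, and 12 of the 52 differed by at least 1 on the log2 scale (4.38% of all genes did).

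**Figure D1:**
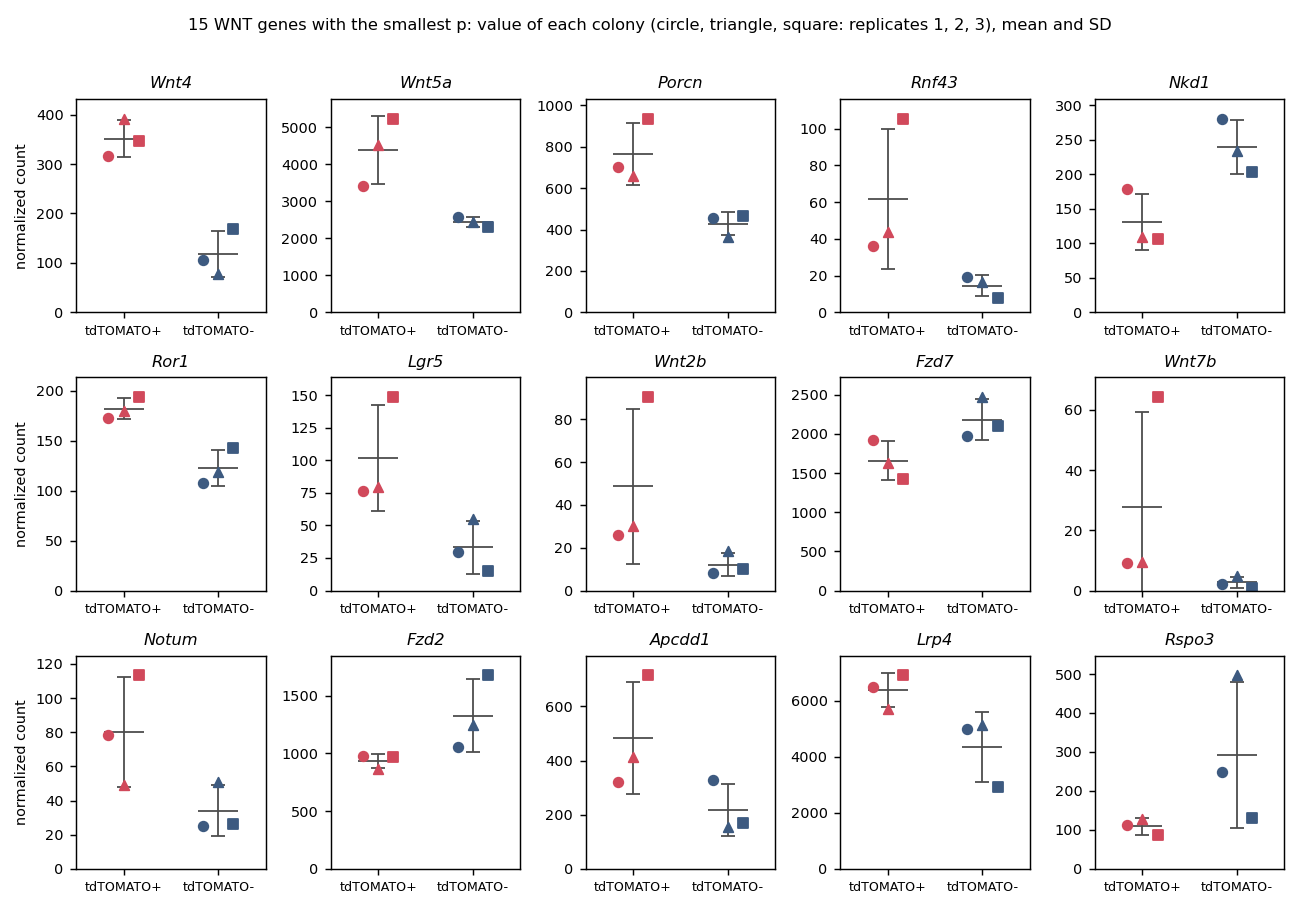
Normalized count (vertical axis, from 0) of the 15 WNT genes with the smallest limma p in each of 3 tdTOMATO+ and 3 tdTOMATO- colonies, with the group mean (long bar) and SD (whiskers, not drawn below 0). *Wnt4* shows 317 to 392 normalized counts in tdTOMATO+ colonies and 77.1 to 168 in tdTOMATO- colonies, while in *Rnf43*, *Lgr5*, *Wnt2b* and *Wnt7b* the third tdTOMATO+ colony stands above the other 2.

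Among the ligands, *Wnt4* was higher in tdTOMATO+ colonies, and *Wnt5a* and the ligand-processing gene *Porcn* had tdTOMATO+ values above every tdTOMATO- value without passing. 10 *Wnt* genes and *Porcn* were measured, 9 of these 11 had a mean of at least 30, and the median log2 fold change of the 11 was 0.47. By limma 1 of the 11 passed as higher (1.20% of all genes) and 0 as lower (0.143%), and 5 had tdTOMATO+ colonies above all tdTOMATO- colonies (9.89% of all genes).

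*Wnt4* (ENSMUSG00000036856, GRCm38 chromosome 4, 137277489 to 137299726, plus strand) encodes a ligand that can act with or without beta-catenin. It had 317, 392 and 346 normalized counts in tdTOMATO+ colonies, against 106, 77.1 and 168 in tdTOMATO- colonies. The groups did not overlap, and the lowest tdTOMATO+ colony was well above the highest tdTOMATO- colony. The log2 fold change was 1.64 (SE 0.27), with a 95% interval of 1.00 to 2.28, a fold of 3.12, at an adjusted p of 0.0401 by limma. This call was near the threshold: the adjusted p was 0.0484 with edgeR and 3.05e-06 with DESeq2, but 0.112 by limma without the mean-variance trend and 0.0688 by limma with the replicate number as a block. Leaving out 1 colony kept the log2 fold change between 1.38 and 1.94, but the adjusted p by limma stayed under 0.05 only without tdTOMATO- replicate 3 (0.0319). It was 0.115, 0.182 and 0.122 without tdTOMATO+ replicates 1, 2 and 3, and 0.0934 and 0.0778 without tdTOMATO- replicates 1 and 2.

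*Wnt5a* (chromosome 14, 28504750 to 28527448, plus strand) encodes a ligand of ROR receptors and acts mostly without beta-catenin. It had 3401, 4519 and 5234 normalized counts in tdTOMATO+ colonies, against 2574, 2444 and 2295 in tdTOMATO- colonies. The groups did not overlap and the tdTOMATO- colonies were close to each other. The log2 fold change was 0.83 (SE 0.15), with an adjusted p of 0.0584 by limma, so it did not pass, though it did without tdTOMATO+ replicate 1 (adjusted p of 0.0432) and with DESeq2 (1.69e-05). The annotation has 358 exon bases of *Wnt5a* shared with a gene on the opposite strand, CT025649.1, which averaged 6.40 normalized counts.

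*Porcn* (chromosome X, 8193848 to 8206525, minus strand) encodes the acyltransferase that attaches the lipid WNT proteins need for secretion and receptor binding. It had 704, 658 and 936 normalized counts in tdTOMATO+ colonies, against 456, 364 and 467 in tdTOMATO- colonies. Again the groups did not overlap. The log2 fold change was 0.83 (SE 0.16), with an adjusted p of 0.0584 by limma, and 0.000376 by DESeq2. The 11 macrophage markers had log2 fold changes of 0.67 to 1.14, and the part of those cells in the values of *Wnt5a* and *Porcn* was not tested.

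A pair of low ligands had their highest value in tdTOMATO+ replicate 3. *Wnt2b*, a ligand of the beta-catenin branch, had 25.8, 30.02 and 90.4 normalized counts in tdTOMATO+ colonies, against 8.01, 18.3 and 10.0 in tdTOMATO- colonies (log2 fold change of 1.77, SE 0.54, adjusted p of 0.223 by limma). *Wnt7b*, which is known to promote bone formation in mice, had 9.28, 9.43 and 64.3 normalized counts in tdTOMATO+ colonies, against 2.29, 4.82 and 1.00 in tdTOMATO- colonies (log2 fold change of 2.50, SE 0.82, adjusted p of 0.261 by limma). Neither gene overlapped between groups, but in both the third tdTOMATO+ colony was far above the other 2, and in the tdTOMATO- colonies *Wnt7b* rested on 2, 5 and 1 reads.

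The other ligands overlapped between groups. *Wnt10b*, which favours osteoblasts over adipocytes, had 558, 606 and 447 normalized counts in tdTOMATO+ colonies, against 938, 281 and 495 in tdTOMATO- colonies (log2 fold change of 0.07, SE 0.43, adjusted p of 0.973 by limma). *Wnt16*, a ligand known for its role in cortical bone, had 53.6, 11.1 and 1.00 normalized counts in tdTOMATO+ colonies, against 58.4, 102 and 8.02 in tdTOMATO- colonies. It varied from colony to colony in both groups more than between them (log2 fold change of -1.79, SE 1.43, adjusted p of 0.718 by limma). *Wnt9a* ran from 209 to 288 normalized counts in tdTOMATO+ colonies and from 115 to 261 in tdTOMATO- colonies, and *Wnt5b*, a close relative of *Wnt5a*, from 112 to 172 and from 80.2 to 147 in the same order of groups. *Wnt11* and *Wnt2* were low in both groups, with at most 60.0 and 6.19 normalized counts in tdTOMATO+ colonies and 59.8 and 9.64 in tdTOMATO- colonies.

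Per kilobase of exon, *Wnt5a* was the most abundant *Wnt* gene in every colony. It made up 53.5%, 57.7% and 62.3% of the summed per-kilobase level of the 10 *Wnt* genes in tdTOMATO+ colonies, against 41.8%, 57.1% and 52.5% in tdTOMATO- colonies. *Wnt4* made up 9.29%, 9.33% and 7.67% in tdTOMATO+ colonies, against 3.23%, 3.36% and 7.18% in tdTOMATO- colonies. The *Wnt4* shares did not overlap, and those of *Wnt5a* did. These shares are of RNA and set no scale for the proteins.

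**Figure D2:**
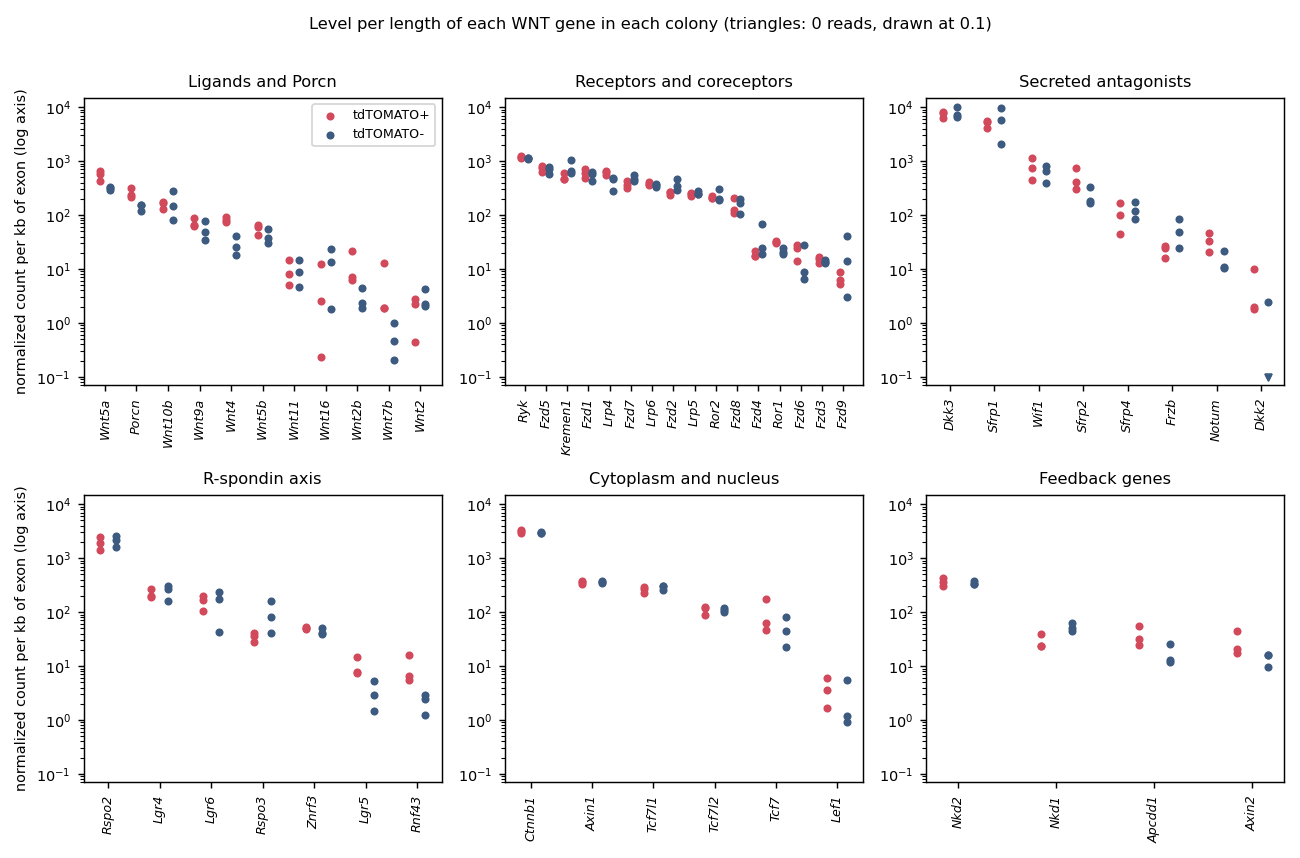
Normalized count per kilobase of exon (log axis) of the 52 WNT genes in each colony, by role, with 3 tdTOMATO+ points to the left of 3 tdTOMATO- points for each gene and values of 0 drawn as triangles at the lower edge. *Dkk3* and *Sfrp1* lead the antagonists, *Rspo2* the R-spondin axis and *Wnt5a* the ligands, while *Dkk2*, *Wnt7b* and *Wnt2* lie near the lower end.

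Promoter sequence is shown for the gene that passed, *Wnt4*, for *Axin2*, a target of beta-catenin that the field reads as a reporter of the pathway, and for *Ror1* and *Fzd7*, receptors whose colonies did not overlap between groups and whose windows hold a TCF and LEF core motif. Windows of 250 bases before the RefSeq start (GRCm38.p6) were found for 31 of the 52 genes. For *Wnt4* only the 104 bases before the first annotated exon are printed. The sequences run 5′ to 3′ along the gene, with capitals on CTTTGA or CTTTGT, the core bound by TCF and LEF factors, and on GGGCGG, the GC box, each on either strand, so that on the opposite strand the GC box reads as CCGCCC, the first core as TCAAAG and the other as ACAAAG.
Wnt4, chr4:137277385-137277488, plus strand: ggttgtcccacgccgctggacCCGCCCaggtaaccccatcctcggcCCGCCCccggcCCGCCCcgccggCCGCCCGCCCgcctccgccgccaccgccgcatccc
Axin2, chr11:108920099-108920348, plus strand: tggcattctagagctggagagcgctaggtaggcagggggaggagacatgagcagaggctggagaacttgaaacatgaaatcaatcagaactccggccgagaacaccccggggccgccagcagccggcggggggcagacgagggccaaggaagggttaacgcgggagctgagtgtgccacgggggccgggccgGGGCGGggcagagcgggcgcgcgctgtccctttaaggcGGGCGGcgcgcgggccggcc
Ror1, chr4:100095541-100095790, plus strand: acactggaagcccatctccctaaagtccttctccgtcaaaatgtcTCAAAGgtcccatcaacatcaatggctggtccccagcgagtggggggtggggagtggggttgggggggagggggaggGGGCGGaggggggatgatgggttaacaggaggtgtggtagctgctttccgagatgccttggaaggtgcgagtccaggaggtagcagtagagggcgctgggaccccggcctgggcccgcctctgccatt
Fzd7, chr1:59481897-59482146, plus strand: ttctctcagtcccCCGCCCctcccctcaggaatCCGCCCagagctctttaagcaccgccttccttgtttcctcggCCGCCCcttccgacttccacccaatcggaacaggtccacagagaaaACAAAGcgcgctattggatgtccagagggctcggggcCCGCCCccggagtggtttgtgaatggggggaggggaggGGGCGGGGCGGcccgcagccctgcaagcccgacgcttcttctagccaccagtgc

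The *Wnt4* window was 85.2% G and C over its 250 bases, where the median of all promoters was 52.4%, and it held GC boxes, some of them overlapping each other, and no TCF and LEF core. *Axin2* held GC boxes 58 and 20 bases before its start and no core in this window. *Ror1* held CTTTGA on the opposite strand 205 bases before its start, and *Fzd7* held CTTTGT on the opposite strand 129 bases before its RefSeq start. Either core was found in 11 of the 31 genes (35.5%) and in 30.8% of all genes with a window. The GC box was found in 23 of the 31 (74.2%) and in 35.4% of all genes with a window, and TATAAA in 9 of the 31 (29.0%) and in 14.3% of all genes with a window. The 27025 genes with a window include genes not measured in these colonies and were not matched to the 31 for G and C content. The excess is therefore no trait shown for WNT genes. A match describes these letters only.

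None of the 16 receptor and coreceptor genes passed in either direction, where 1.20% of all genes passed as higher and 0.143% as lower. Their median log2 fold change was 0.006. The mean of all 16 was at least 30. In 3 of them the tdTOMATO+ colonies lay above all tdTOMATO- colonies (*Ror1*, *Lrp4* and *Ryk*, where 9.89% of all genes did) and in 3 below (*Fzd7*, *Fzd2* and *Kremen1*, where 8.33% did). With limma, 2 had an unadjusted p under 0.05 in the higher direction (7.53% of all genes) and 2 in the lower direction (4.79%). None was called by edgeR (1.15% of all genes higher and 0.129% lower) or DESeq2 (3.38% and 1.08%).

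*Ror1* encodes a receptor tyrosine kinase-like protein that binds WNT5A. It had 173, 179 and 194 normalized counts in tdTOMATO+ colonies, against 108, 119 and 142 in tdTOMATO- colonies, with no overlap and little spread among tdTOMATO+ colonies. The log2 fold change was 0.57 (SE 0.16), with an adjusted p of 0.176 by limma. *Ror2*, its relative, overlapped, with 884 to 969 normalized counts in tdTOMATO+ colonies and 803 to 1281 in tdTOMATO- colonies. *Ryk*, a further receptor of the branch without beta-catenin, had 5257, 5512 and 5655 normalized counts in tdTOMATO+ colonies, against 5119, 4981 and 5229 in tdTOMATO- colonies. Its colonies did not overlap, though by a narrow margin (log2 fold change of 0.10, SE 0.06, adjusted p of 0.610 by limma).

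Of the Frizzled receptors, 9 were measured. *Fzd7* had 1918, 1623 and 1430 normalized counts in tdTOMATO+ colonies, against 1968, 2473 and 2096 in tdTOMATO- colonies (log2 fold change of -0.40, SE 0.13, adjusted p of 0.248 by limma). *Fzd2* had 980, 866 and 966 normalized counts in tdTOMATO+ colonies, against 1059, 1243 and 1680 in tdTOMATO- colonies (log2 fold change of -0.48, SE 0.16, adjusted p of 0.289 by limma). In both the tdTOMATO+ colonies lay below every tdTOMATO- colony, for *Fzd7* by a narrow margin. Per kilobase of exon, *Fzd1*, *Fzd2*, *Fzd5* and *Fzd7* together made up 88.3% to 92.1% of the summed level of the *Fzd* genes in tdTOMATO+ colonies and 88.1% to 90.4% in tdTOMATO- colonies, so the same 4 receptors carried most of the Frizzled RNA in every colony. *Fzd1* had 2038 to 2948 normalized counts in tdTOMATO+ colonies and 1776 to 2674 in tdTOMATO- colonies. *Fzd5* had 4357 to 5654 and *Fzd8* 649 to 1243 in tdTOMATO+ colonies, against 4007 to 5368 and 613 to 1176 in tdTOMATO- colonies.

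The low Frizzled genes were uneven among colonies. *Fzd9* had 20.6, 14.6 and 12.1 normalized counts in tdTOMATO+ colonies, against 6.87, 31.8 and 94.2 in tdTOMATO- colonies (log2 fold change of -0.83, SE 0.86, adjusted p of 0.792 by limma), and without tdTOMATO- replicate 3 the log2 fold change was 0.03. *Fzd4*, which also binds norrin, had 117 to 146 normalized counts in tdTOMATO+ colonies and 129, 166 and 466 in tdTOMATO- colonies. Its log2 fold change of -0.76 was -0.21 without tdTOMATO- replicate 3. That colony, highest in both genes, also had 796 normalized counts of *Lum*, a matrix gene, and 161 of *Acan*, a cartilage gene, where the other 5 colonies had 11.3 to 18.3 of *Lum* and 0 to 4.58 of *Acan*. The other matrix and chondrocyte markers were mixed. *Col1a1*, *Col1a2*, *Dcn*, *Col2a1* and *Sox9* were also highest there. *Col3a1* was highest in tdTOMATO- replicate 1, and *Col10a1* and *Comp* in tdTOMATO- replicate 2. A link to the Frizzled genes was not tested. *Fzd6* ran from 69.1 to 134 in tdTOMATO+ colonies and from 31.8 to 134 in tdTOMATO- colonies, and *Fzd3* from 168 to 218 in tdTOMATO+ colonies and from 164 to 191 in tdTOMATO- colonies.

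The coreceptors of the beta-catenin branch were steady. *Lrp6* had 5024, 5506 and 5168 normalized counts in tdTOMATO+ colonies, against 4547, 4935 and 5042 in tdTOMATO- colonies, and its log2 fold change of 0.11 (SE 0.07, adjusted p of 0.611 by limma) had a 95% interval of -0.05 to 0.28. *Lrp5*, known for its effect on bone mass, had 2244 to 2477 normalized counts in tdTOMATO+ colonies and 2371 to 2761 in tdTOMATO- colonies, with an interval of -0.28 to 0.09 around a log2 fold change of -0.09. *Lrp4*, which binds sclerostin and serves as the agrin receptor at the synapse, had 6493, 5716 and 6921 normalized counts in tdTOMATO+ colonies, against 4999, 5153 and 2924 in tdTOMATO- colonies. The groups did not overlap, with the lowest value in tdTOMATO- replicate 3 (log2 fold change of 0.59, SE 0.23, adjusted p of 0.372 by limma). *Kremen1*, a receptor of Dickkopf proteins, had 3559 to 4663 normalized counts in tdTOMATO+ colonies and 4669 to 8018 in tdTOMATO- colonies, with an adjusted p of 0.417 by limma. Its groups were apart only by the very narrow margin between 4663 and 4669.

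**Figure D3:**
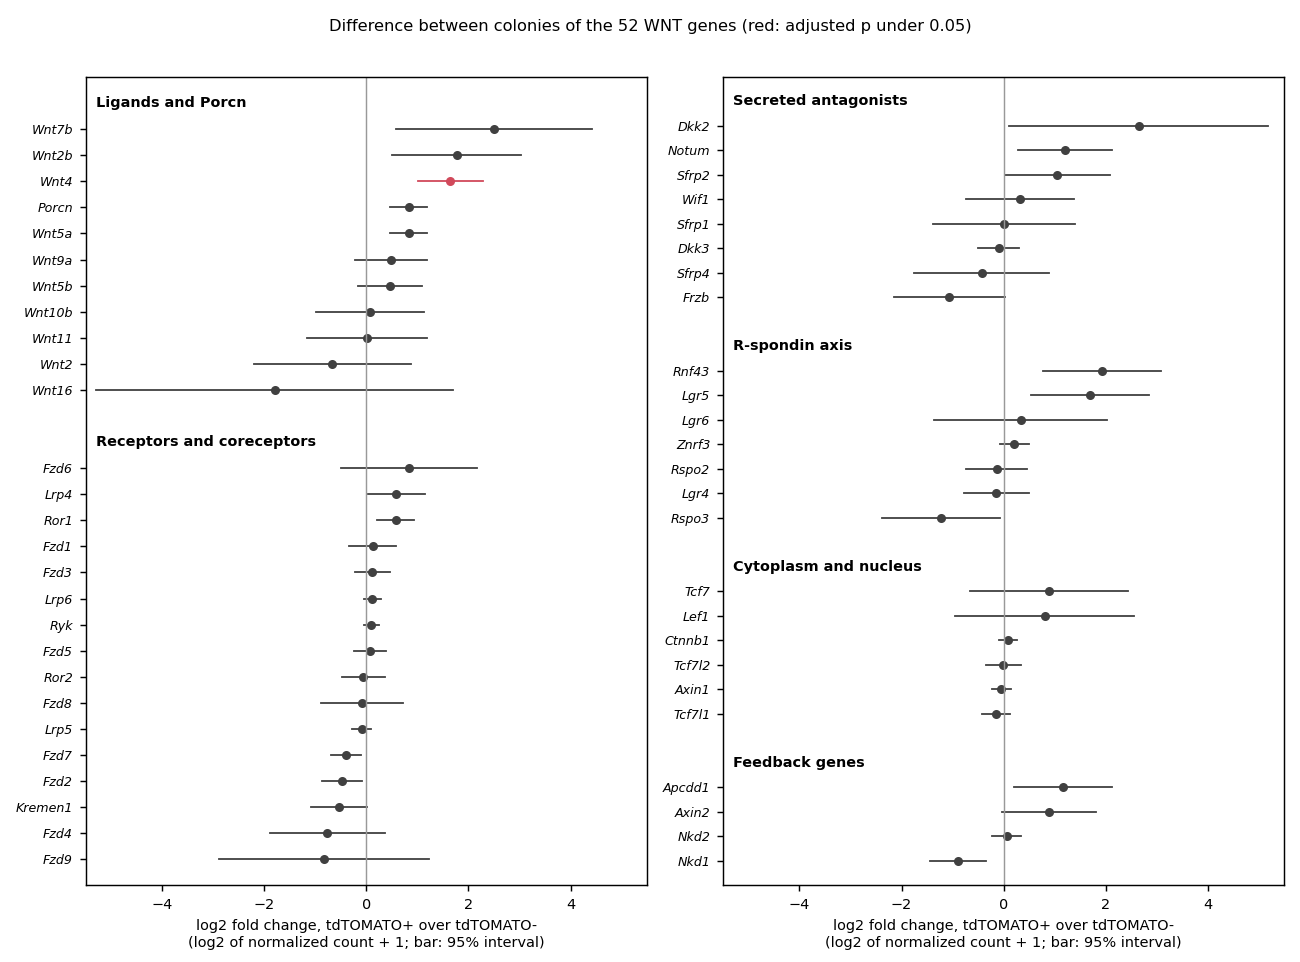
Log2 fold change of tdTOMATO+ over tdTOMATO- colonies (horizontal axis) with its 95% interval from limma for each of the 52 WNT genes, grouped by role and ordered by size, with the gene that passed in red. *Wnt4* at 1.64 is the red point, and the intervals of *Ctnnb1*, *Ryk*, *Lrp6* and *Lrp5* are narrow around 0.

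R-spondins bind LGR4, LGR5 and LGR6 and draw the ubiquitin ligases ZNRF3 and RNF43 off Frizzled receptors, which raises the response to WNT. In this axis *Rnf43* and *Lgr5* had higher values in every tdTOMATO+ colony than in any tdTOMATO- colony, and *Rspo3* had lower ones. None of the 7 genes passed with limma (1.20% of all genes higher and 0.143% lower) or edgeR (1.15% and 0.129%). By limma 2 of the 7 had an unadjusted p under 0.05 in the higher direction (7.53% of all genes) and 1 in the lower direction (4.79%), and DESeq2 called the same 3 (3.38% of all genes higher and 1.08% lower). *Rnf43* had 36.1, 43.7 and 106 normalized counts in tdTOMATO+ colonies, against 19.5, 16.4 and 8.02 in tdTOMATO- colonies (log2 fold change of 1.93, SE 0.49, adjusted p of 0.144 by limma and 0.0100 by DESeq2). *Lgr5*, also a target of beta-catenin, had 76.3, 79.8 and 149 normalized counts in tdTOMATO+ colonies, against 29.8, 54.9 and 15.03 in tdTOMATO- colonies (log2 fold change of 1.69, SE 0.49, adjusted p of 0.203 by limma and 0.0319 by DESeq2). In both the third tdTOMATO+ colony was highest and the third tdTOMATO- colony lowest. Without tdTOMATO+ replicate 3 the log2 fold changes were 1.47 and 1.39.

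*Rspo3* had 111, 129 and 86.4 normalized counts in tdTOMATO+ colonies, against 248, 497 and 129 in tdTOMATO- colonies. The highest tdTOMATO+ colony and the lowest tdTOMATO- colony almost met, and the log2 fold change of -1.22 (SE 0.48, adjusted p of 0.374 by limma and 0.0241 by DESeq2) ran from -1.70 to -0.73 when 1 colony was left out. *Rspo2* was the main R-spondin in every colony: it had 12645, 9788 and 7308 normalized counts in tdTOMATO+ colonies, against 8322, 13240 and 10889 in tdTOMATO- colonies (log2 fold change of -0.14, SE 0.25, adjusted p of 0.897 by limma). Per kilobase of exon *Rspo3* was 1.44%, 2.13% and 1.92% of the 2 R-spondins in tdTOMATO+ colonies, against 4.71%, 5.85% and 1.93% in tdTOMATO- colonies.

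The remaining genes of the axis overlapped between groups. *Lgr4* had 1103, 1561 and 1145 normalized counts in tdTOMATO+ colonies, against 941, 1766 and 1596 in tdTOMATO- colonies (log2 fold change of -0.14, SE 0.26, adjusted p of 0.901 by limma). *Lgr6* had 715, 1361 and 1156 normalized counts in tdTOMATO+ colonies, against 297, 1613 and 1174 in tdTOMATO- colonies (log2 fold change of 0.33, SE 0.68, adjusted p of 0.911 by limma), with the first colony of each group lowest. Per kilobase of exon *Lgr5* was 1.65% to 3.83% of the 3 *Lgr* genes in tdTOMATO+ colonies and 0.330% to 1.41% in tdTOMATO- colonies, so it was the smallest of the 3 in all colonies. *Znrf3* ran from 379 to 423 normalized counts in tdTOMATO+ colonies and from 310 to 402 in tdTOMATO- colonies.

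Of the 8 secreted antagonists, 0 passed in either direction with limma (1.20% of all genes higher and 0.143% lower). An unadjusted p under 0.05 was found in 3, all with higher means in tdTOMATO+ colonies (7.53% of all genes). In none were the groups apart, where 18.2% of all genes were apart in either direction. DESeq2 called *Sfrp2* higher (3.38% of all genes). *Notum* encodes an enzyme that removes the lipid from WNT proteins and is itself a target of beta-catenin. It had 78.4, 48.9 and 114 normalized counts in tdTOMATO+ colonies, against 25.2, 51.1 and 26.1 in tdTOMATO- colonies, so 1 colony of each group crossed (log2 fold change of 1.21, SE 0.40, adjusted p of 0.264 by limma). *Dkk2*, which blocks LRP5 and LRP6, was close to the detection limit: it had 7, 8 and 37 reads in tdTOMATO+ colonies, against 0, 0 and 9 in tdTOMATO- colonies, and was the only one of the 52 genes at 0 in any colony. Its counts of 0 allow up to 3.43 and 2.89 normalized counts in tdTOMATO- replicates 1 and 2, for counting error only (adjusted p of 0.383 by limma).

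Secreted Frizzled-related proteins bind WNT ligands outside the cell. *Sfrp2* had 868, 1599 and 643 normalized counts in tdTOMATO+ colonies, against 395, 354 and 715 in tdTOMATO- colonies, and the third colonies overlapped (log2 fold change of 1.05, SE 0.42, adjusted p of 0.393 by limma and 0.0429 by DESeq2). *Sfrp1* had 24027, 18262 and 23056 normalized counts in tdTOMATO+ colonies, against 9250, 42851 and 25130 in tdTOMATO- colonies (log2 fold change of 0.01, SE 0.56, adjusted p of 0.998 by limma). The tdTOMATO- colonies spanned both the lowest and the highest value, so the 95% interval was wide, from -1.39 to 1.41. *Frzb*, a relative known from cartilage, had 51.5 to 87.4 normalized counts in tdTOMATO+ colonies and 79.0, 154 and 274 in tdTOMATO- colonies, highest in tdTOMATO- replicate 3 (log2 fold change of -1.06, adjusted p of 0.416 by limma, and -0.63 without that colony). *Sfrp4* ran from 185 to 687 normalized counts in tdTOMATO+ colonies and from 353 to 741 in tdTOMATO- colonies.

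*Dkk3*, a divergent member of the Dickkopf family, was the most abundant antagonist RNA per kilobase of exon on average. It had 21136, 25926 and 26968 normalized counts in tdTOMATO+ colonies, against 33714, 23844 and 22513 in tdTOMATO- colonies (log2 fold change of -0.10, SE 0.17, adjusted p of 0.891 by limma). *Wif1*, a secreted protein that binds WNT ligands, had 1845, 1104 and 2798 normalized counts in tdTOMATO+ colonies, against 947, 1953 and 1585 in tdTOMATO- colonies (log2 fold change of 0.32, SE 0.42, adjusted p of 0.854 by limma). Both overlapped between groups. *Sfrp1* and *Dkk3* together were 89.5%, 89.9% and 89.4% of the summed per-kilobase level of the 8 antagonists in tdTOMATO+ colonies, against 93.9%, 93.6% and 91.4% in tdTOMATO- colonies. These shares did not overlap.

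The feedback genes, which the pathway switches on and which then dampen it, lay on both sides of 0. None of the 4 passed with limma (1.20% of all genes higher and 0.143% lower) or edgeR (1.15% and 0.129%). *Apcdd1* in the higher and *Nkd1* in the lower direction had an unadjusted limma p under 0.05 (7.53% and 4.79% of all genes). Both were called by DESeq2 (3.38% and 1.08%). *Nkd1*, which binds Dishevelled, had 178, 109 and 106 normalized counts in tdTOMATO+ colonies, against 281, 233 and 203 in tdTOMATO- colonies, lower in every tdTOMATO+ colony (log2 fold change of -0.89, SE 0.24, adjusted p of 0.156 by limma and 0.0278 by DESeq2). *Apcdd1*, a membrane inhibitor that binds WNT and LRP proteins, had 322, 415 and 716 normalized counts in tdTOMATO+ colonies, against 327, 154 and 168 in tdTOMATO- colonies (log2 fold change of 1.16, SE 0.40, adjusted p of 0.306 by limma and 0.0309 by DESeq2). Its lowest tdTOMATO+ colony lay just under its highest tdTOMATO- colony. *Axin2*, a scaffold of the destruction complex, had 96.9, 112 and 249 normalized counts in tdTOMATO+ colonies, against 89.3, 53.0 and 89.2 in tdTOMATO- colonies. The colonies did not overlap, but the margin at the lower end was small, and the log2 fold change of 0.89 (SE 0.39, adjusted p of 0.427 by limma) was 0.47 without tdTOMATO+ replicate 3. *Nkd2* had 2046, 1718 and 1476 normalized counts in tdTOMATO+ colonies, against 1803, 1571 and 1620 in tdTOMATO- colonies (log2 fold change of 0.06, SE 0.12, adjusted p of 0.911 by limma).

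Of the cytoplasmic and nuclear genes, 0 of 6 passed with limma, edgeR or DESeq2, 0 had an unadjusted limma p under 0.05, and all 6 overlapped. Of all genes, 12.3% had an unadjusted limma p under 0.05 in either direction and 18.2% did not overlap. The shares of all genes called higher and lower were 1.20% and 0.143% with limma, 1.15% and 0.129% with edgeR, and 3.38% and 1.08% with DESeq2. *Ctnnb1*, the gene of beta-catenin, had 16407, 15221 and 17377 normalized counts in tdTOMATO+ colonies, against 15805, 15132 and 15224 in tdTOMATO- colonies. Its log2 fold change was 0.08 (SE 0.08, adjusted p of 0.750 by limma) with a 95% interval of -0.09 to 0.26. The annotation has 759 exon bases of *Ctnnb1* shared with *Ulk4* on the opposite strand, which averaged 106 normalized counts. *Axin1* had 1251, 1440 and 1390 normalized counts in tdTOMATO+ colonies, against 1399, 1468 and 1332 in tdTOMATO- colonies (log2 fold change of -0.04, SE 0.08, adjusted p of 0.899 by limma). The RNA level says nothing of the amount or place of the beta-catenin protein, on which the pathway acts.

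The 4 genes of TCF and LEF factors differed in level. *Tcf7l1*, mostly a repressor, had 1122, 1074 and 871 normalized counts in tdTOMATO+ colonies, against 1014, 1171 and 1207 in tdTOMATO- colonies (log2 fold change of -0.15, SE 0.12, adjusted p of 0.699 by limma). *Tcf7l2* ran from 761 to 1089 in tdTOMATO+ colonies and from 878 to 1058 in tdTOMATO- colonies. *Tcf7* had 167, 124 and 457 normalized counts in tdTOMATO+ colonies, against 212, 58.8 and 117 in tdTOMATO- colonies, and *Lef1* ran from 14.4 to 52.3 in tdTOMATO+ colonies and from 8.01 to 48.1 in tdTOMATO- colonies. Per kilobase of exon *Lef1* was the lowest of the 4.

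The WNT genes varied among colonies of 1 group. Over the 48 whose mean was at least 30, the median SD within groups was 0.39 on the log2 scale, where it was 0.14 over all 12303 genes of that level. Of the 48, 43 lay above the median of all genes and 22 above their 90th percentile, 0.43. The sets were not matched for level. The steady ones were *Ryk*, *Lrp6*, *Lrp5*, *Ctnnb1* and *Axin1*, and *Wnt16* and *Fzd9* were those whose highest colony was over 8 times the lowest colony of the same group.

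Of these 48 genes, 17 (35.4%) had their highest value of the 6 colonies in tdTOMATO+ replicate 3, where 17.8% of all genes of that level did. They were the ligand genes *Wnt5a*, *Wnt2b*, *Wnt5b*, *Wnt9a* and *Porcn*, the receptor genes *Ror1*, *Ryk*, *Lrp4* and *Fzd5*, the antagonists *Notum* and *Wif1*, *Rnf43* and *Lgr5* of the R-spondin axis, *Apcdd1* and *Axin2* of the feedback genes, and *Tcf7* and *Ctnnb1*. *Wnt4* was highest in tdTOMATO+ replicate 2. Without tdTOMATO+ replicate 3, log2 fold changes were 1.21 for *Wnt2b*, 1.62 for *Wnt7b*, 0.84 for *Apcdd1*, 0.92 for *Notum*, 0.34 for *Tcf7* and 1.65 for *Wnt4*, and no WNT gene passed, *Wnt4* included (adjusted p of 0.122 by limma). That colony also had the lowest value of *Col2a1*, a cartilage collagen gene, with 18940 normalized counts against 65479 to 136159 in the other 5 colonies. The other chondrocyte markers did not all follow. *Comp* was lowest there too, and *Acan* was at 0 there and in tdTOMATO+ replicate 2. *Sox9* and *Col10a1* were lowest in tdTOMATO+ replicate 2. The third tdTOMATO+ colony had 1132 normalized counts of *Lepr*, a receptor gene of marrow stroma, against 354 to 408 in the other tdTOMATO+ colonies and 69.4 to 108 in tdTOMATO- colonies. The 8 marrow stroma markers, *Lepr* included, did not follow *Lepr* as a sum. They summed to 60478 in that colony, against 104850 and 74782 in tdTOMATO+ replicates 1 and 2 and 51965 to 87694 in tdTOMATO- colonies. *Cxcl12*, with 43947 in that colony, made up most of these sums. Their part in the pattern was not tested.

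**Figure D4:**
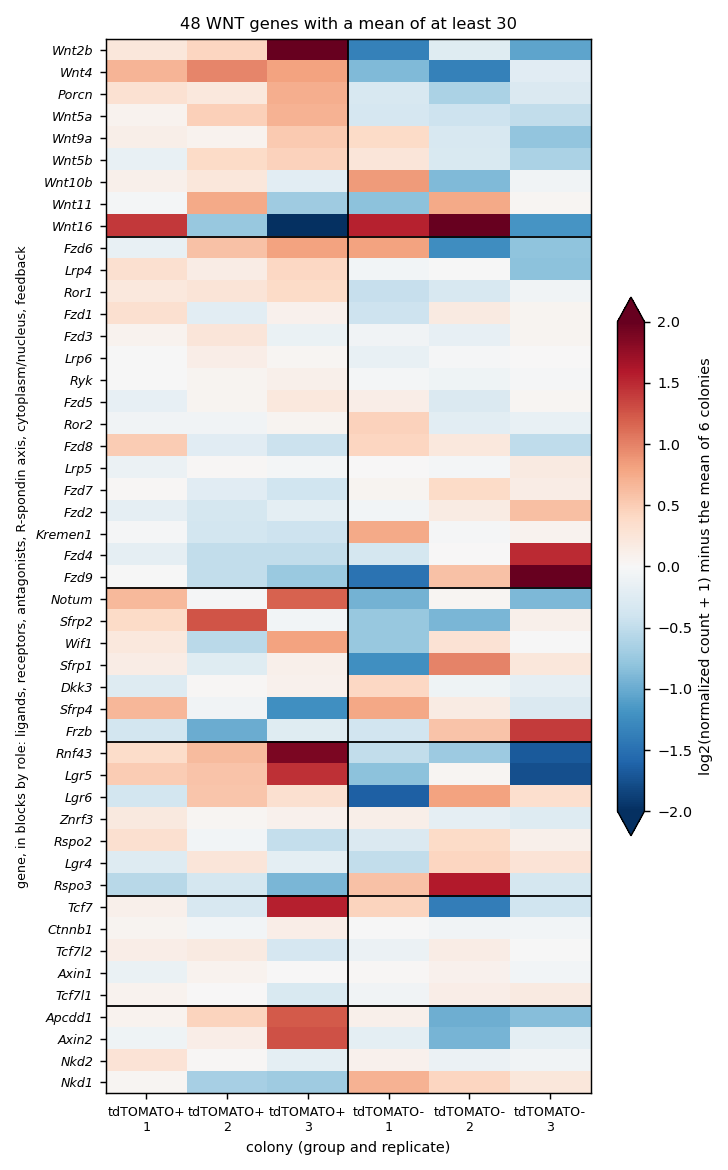
Log2 of the normalized count plus 1, minus the mean of the 6 colonies (colour), for the 48 WNT genes with a mean of at least 30, with tdTOMATO+ colonies to the left and values past 2 in either direction in the end colours. The third tdTOMATO+ column is the reddest in *Wnt2b*, *Rnf43*, *Lgr5*, *Tcf7*, *Apcdd1* and *Axin2*, and the third tdTOMATO- column in *Fzd4*, *Fzd9* and *Frzb*.

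Other genes of the pathway, from secretion and modifiers of WNT through the cytoplasm and nucleus to genes known as its targets, gave 79 measured genes, of which 2 rose in tdTOMATO+ colonies (1.20% of all genes) and 0 fell (0.143%) by limma. edgeR also called 2 (1.15% of all genes), and DESeq2 6 higher (3.38%) and 1 lower (1.08%). With limma, 8 had an unadjusted p under 0.05 in the higher direction (7.53% of all genes) and 4 in the lower direction (4.79%), and the median log2 fold change was 0.005. *Draxin*, a secreted guidance factor that can inhibit WNT signalling, had 209, 288 and 386 normalized counts in tdTOMATO+ colonies, against 75.6, 89.7 and 72.2 in tdTOMATO- colonies (log2 fold change of 1.84, SE 0.23, adjusted p of 0.0173 by limma). *Wisp2*, a matricellular gene induced by WNT, had 3371, 3843 and 4301 normalized counts in tdTOMATO+ colonies, against 2346, 2317 and 2023 in tdTOMATO- colonies (log2 fold change of 0.78, SE 0.10, adjusted p of 0.0193 by limma). In both genes every tdTOMATO+ colony was clear of every tdTOMATO- colony. With 1 colony left out, between 0 and 2 of the 79 passed as higher: both without tdTOMATO+ replicate 3 or tdTOMATO- replicate 1, 1 without tdTOMATO+ replicate 1, and none without tdTOMATO+ replicate 2 or tdTOMATO- replicates 2 or 3. The number of all genes that passed also moved widely between these fits, as given in the closing section.

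By class, 17 of the 79 were genes known as targets. 1 of them passed (*Wisp2*), 7 had tdTOMATO+ colonies above all tdTOMATO- colonies (9.89% of all genes) and 1 below (8.33%), and their median log2 fold change was 0.29, while the medians were -0.004 for 32 cytoplasmic genes, -0.005 for 15 nuclear genes and -0.13 for 15 genes of secretion and modification. Next to the 2 that passed, the smallest p-values belonged to *Twist1*, a transcription factor of mesenchyme (log2 fold change of 0.58, adjusted p of 0.0709 by limma), *Sulf1*, a heparan sulfatase that affects WNT binding (-1.56, 0.0864), *Gja1*, the gene of connexin 43 (0.70, 0.140), *Tle4*, a corepressor of TCF factors (0.53, 0.174), *Sgk1*, a serine kinase (0.88, 0.230), and *Tnks*, a tankyrase that marks AXIN for degradation (-0.27, 0.281). *Sulf1* had 3968, 4663 and 2213 normalized counts in tdTOMATO+ colonies, against 11365, 11579 and 8028 in tdTOMATO- colonies. The groups did not overlap in any of these 6 genes, which were picked by their small p in the same data. Of all 79, 11 had tdTOMATO+ colonies above all tdTOMATO- colonies (9.89% of all genes) and 7 below (8.33%).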

How the data were processed

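Bulk RNA-seq of 3 tdTOMATO+ and 3 tdTOMATO- CFU-Fs was used, with groups from the sample labels. According to the methods of the study, adapters and low-quality bases were removed with TrimGalore, reads were placed on GRCm38 by STAR, and those with a single location were counted by HTSeq. The authors retained a gene if 1 library or more had 10 reads of it, and scaled the counts by size factors from DESeq2. Tool versions and the strand setting are not given in the sources used here. The deposited signal is this normalized count. The deposited table also holds the authors' own fold changes and p-values and further sheets select genes from it; none of these was used, and 0 columns of per-sample values were left without a sample.

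Dividing the values of a library by its smallest step gave whole numbers for 100% of them (tolerance 0.001), and these were taken as reads. For replicate 3 the step was close to 1, at 1.0048 in the tdTOMATO+ and 1.0023 in the tdTOMATO- colony, so the reads recovered there rest on the unrounded values. The main test, chosen for normalized values, was limma 3.58.1 (R 4.3.3; trend and robust) on log2(normalized count + 1) over all 14735 genes. edgeR 4.0.16 (quasi-likelihood, TMM) and DESeq2 1.42.0 on recovered reads, TMM scaling, pseudocounts of 0.5 and 8, a mean of at least 30, no trend, a replicate block and leaving out each colony were alternatives. An exact permutation test of 3 against 3 cannot go under 0.1. The main limma fit, edgeR and DESeq2 were tested on simulated data, and the other settings were not. Intervals are 95% intervals of the fit, and the limit of a count of 0 is 3 reads.

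Exon lengths and coordinates come from GENCODE M21 (GRCm38), in which 14585 table genes were matched. The authors' gene models may differ. Promoters are RefSeq windows of 250 bases, searched on both strands.

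The members and lists were chosen with earlier results of these data known. Every member is named. Values in each colony and full statistics go to genes with an adjusted p under 0.05, the 15 with the smallest p, the 3 most abundant per role, and genes of mean at least 30 whose highest colony is over 8 times the lowest of its group; other members are given in part. Other pathway genes are named where they passed, with the next 6 by p. *Sfrp2*, *Axin2*, *Dkk2*, *Frzb*, *Tcf7* and *Fzd4* were given more values after these were seen.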

Additional observations from a re-analysis of the deposited data

How the results depend on the processing

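TMM scaling, pseudocounts of 0.5 and 8 and a filter at a mean of 30 changed no call or direction of a WNT gene, and edgeR changed no call. DESeq2 called 498 genes higher and 159 lower, with 9 and 2 of the WNT genes and 6 and 1 of the other pathway genes. limma without the trend called 1 gene higher and 0 lower, with 0 WNT genes and 0 other pathway genes. The replicate block (124 genes higher and 24 lower) called 1 WNT gene higher and 0 lower, but *Porcn* (adjusted p of 0.0397 by limma) in place of *Wnt4* (0.0688), and 1 other pathway gene in each direction. Same-numbered colonies deviated together with r of 0.095, 0.00035 and 0.15. No pair of known common origin was at hand to compare with, so these values cannot tell whether same-numbered colonies shared a mouse or plate.

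With 1 colony left out, limma called 1 to 178 genes higher and 0 to 44 lower, 0 to 1 WNT genes higher and 0 lower, and 0 to 2 other pathway genes higher and 0 to 1 lower. Directions turned in 17 WNT genes, none of which had passed: log2 fold changes ran -0.33 to 0.066 for *Rspo2*, -0.42 to 0.033 for *Lgr4*, -0.40 to 0.82 for *Lgr6*, -0.085 to 0.016 for *Axin1*, -0.11 to 0.15 for *Tcf7l2*, -0.062 to 0.17 for *Nkd2*, -0.35 to 0.51 for *Wnt10b*, -0.39 to 0.39 for *Wnt11*, -1.77 to 0.028 for *Fzd9*, -0.057 to 0.26 for *Fzd1*, -0.051 to 0.17 for *Fzd5*, -0.18 to 0.15 for *Ror2*, -0.37 to 0.10 for *Fzd8*, -0.87 to 0.078 for *Sfrp4*, -0.0042 to 0.67 for *Wif1*, -0.21 to 0.083 for *Dkk3* and -0.60 to 0.50 for *Sfrp1*. edgeR and DESeq2 turned *Tcf7l2* (0.0059 and 0.0022), *Wnt10b* (-0.080 and -0.087) and *Sfrp1* (-0.24 and -0.24), and DESeq2 *Wnt11* (-0.0022). The cause was not tested. Genes with few reads, such as *Dkk2*, *Wnt7b* and *Wnt2*, have too few for a small difference to show.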
